A study of Mus musculus with 2 samples.

Results

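The genes described here encode the adhesion receptors of the platelet surface and the best known cargo of its alpha granules: Itga2b, Itgb3, Gp1ba, Gp1bb, Gp5, Gp9, Gp6, Pf4, Ppbp and Vwf. Their accessible chromatin was read from ATAC-seq, an assay that uses a transposase to cut and tag open DNA, of common myeloid progenitors from C57BL/6J male mice aged 5 to 6 weeks. These bone marrow cells give rise to megakaryocytes, the parents of platelets, and to erythroid, granulocytic and monocytic cells. The series has 2 libraries of 50000 cells each, labelled biological replicates 1 and 2 of 1 untreated group. Their donor label is the same and separate animals are not stated, so a difference between the libraries may be technical.

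A region was a merged run of overlapping peaks in the deposited conservative list of both replicates, filtered on the irreproducible discovery rate (IDR), a measure of how well peak ranks repeat. Regions with any base within 1 kb of an annotated start of one of these genes were taken as promoter regions. Distal regions were those farther away whose nearest protein-coding start, within 100 kb, belonged to one of them. This gave 37 regions of the 65789 on chromosomes 1 to 19, of which 17 were promoter regions and 20 distal. All positions below are in mm10 (GRCm38), and a signed distance runs from the start of the gene's main transcript to the region's summit, along the direction of transcription. The lists hold no read counts, so the depth of each library is unknown. Signal means the authors' own value for a peak, on a scale that is not stated, and it was read here as a rank within 1 list. With 1 group there was no treatment or second cell type to test, so counts are descriptions, set beside the same count over all regions or all protein-coding genes.

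As background, the integrin chains alphaIIb (Itga2b, also known as CD41) and beta3 (Itgb3) form the fibrinogen receptor that lets activated platelets bind each other. The glycoproteins Ib alpha, Ib beta, V and IX (Gp1ba, Gp1bb, Gp5, Gp9) form the complex that catches von Willebrand factor under flow, and glycoprotein VI (Gp6) is the signalling receptor for collagen. Alpha granules store the chemokines platelet factor 4 (Pf4) and pro-platelet basic protein (Ppbp) and the adhesive multimer von Willebrand factor (Vwf). In megakaryocytes such genes are known targets of GATA1 with FOG1, of the ETS factor FLI1, and of RUNX1, TAL1 and NF-E2.

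The sequences that bear on the results are shown before the values. The RefSeq promoters, from 250 bases before to 50 after the start of the RefSeq table (GRCm38.p6), are given for Gp1ba, which had the strongest promoter region of the group, for Gp9 and Pf4, which had weaker ones, and for Ppbp and Gp6, which had none. Of the 10 symbols, 8 matched that table. Capitals mark GATA motifs, AGATAA or TGATAA on either strand, and the CTG and GATAA ends of the composite of an E-box end with GATA, which is CTG, 7 to 9 bases of any kind, then GATAA. All are written 5′ to 3′ on the gene's strand.
Gp1ba promoter, chr11:70638872-70639171, plus strand: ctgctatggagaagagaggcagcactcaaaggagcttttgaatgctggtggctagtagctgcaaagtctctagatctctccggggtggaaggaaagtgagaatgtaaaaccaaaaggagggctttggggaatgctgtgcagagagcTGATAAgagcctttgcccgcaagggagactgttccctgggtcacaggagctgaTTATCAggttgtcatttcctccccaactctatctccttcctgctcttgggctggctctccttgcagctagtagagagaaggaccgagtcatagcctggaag
Gp9 promoter, chr6:87777820-87778119, plus strand: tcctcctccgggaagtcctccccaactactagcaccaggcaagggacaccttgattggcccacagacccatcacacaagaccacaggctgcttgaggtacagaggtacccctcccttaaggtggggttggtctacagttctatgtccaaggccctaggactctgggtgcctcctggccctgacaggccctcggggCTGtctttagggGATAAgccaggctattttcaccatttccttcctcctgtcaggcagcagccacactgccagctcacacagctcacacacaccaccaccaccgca
Pf4 promoter, chr5:90772185-90772484, plus strand: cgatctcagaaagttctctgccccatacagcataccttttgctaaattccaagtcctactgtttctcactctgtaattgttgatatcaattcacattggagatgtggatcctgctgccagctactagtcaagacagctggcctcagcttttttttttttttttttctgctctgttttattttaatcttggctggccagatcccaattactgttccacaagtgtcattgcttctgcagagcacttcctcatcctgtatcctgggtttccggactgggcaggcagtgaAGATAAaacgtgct
Ppbp promoter, chr5:90768268-90768567, plus strand: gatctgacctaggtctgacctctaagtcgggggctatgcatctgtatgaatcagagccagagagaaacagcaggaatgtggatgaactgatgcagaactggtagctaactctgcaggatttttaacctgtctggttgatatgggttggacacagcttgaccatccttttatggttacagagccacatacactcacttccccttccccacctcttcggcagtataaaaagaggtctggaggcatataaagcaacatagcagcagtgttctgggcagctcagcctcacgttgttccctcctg
Gp6 promoter, chr7:4397695-4397994, minus strand: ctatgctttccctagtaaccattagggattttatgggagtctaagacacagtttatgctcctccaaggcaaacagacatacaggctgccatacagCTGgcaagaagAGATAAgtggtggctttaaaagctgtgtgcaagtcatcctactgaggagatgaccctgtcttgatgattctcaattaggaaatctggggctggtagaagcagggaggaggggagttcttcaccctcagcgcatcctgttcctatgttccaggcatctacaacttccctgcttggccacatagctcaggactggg
The Gp1ba promoter holds GATA matches at −104 to −99 and, on the opposite strand, at −51 to −46. The Gp9 promoter holds the composite at −55 to −39, and the Pf4 promoter a GATA match past its start at 36 to 41. The Gp6 promoter, which lay in no region, holds the composite at −155 to −139, so the letters alone do not separate the open starts from the others. In the Ppbp promoter neither motif was found.

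Windows of 201 bases centred on a summit are given next for 5 regions: the Itga2b start, an intronic region each of Itgb3 and Vwf that holds the composite, and the strongest distal regions of Vwf and Gp9, which hold no capitals.
Itga2b summit at −305 bp, chr11:102470088-102470288, minus strand: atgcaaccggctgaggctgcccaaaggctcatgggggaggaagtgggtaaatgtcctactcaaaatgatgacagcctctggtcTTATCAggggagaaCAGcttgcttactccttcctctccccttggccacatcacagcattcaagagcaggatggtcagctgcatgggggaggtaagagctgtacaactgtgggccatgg
Itgb3 summit at 3806 bp, intron 1, chr11:104611706-104611906, plus strand: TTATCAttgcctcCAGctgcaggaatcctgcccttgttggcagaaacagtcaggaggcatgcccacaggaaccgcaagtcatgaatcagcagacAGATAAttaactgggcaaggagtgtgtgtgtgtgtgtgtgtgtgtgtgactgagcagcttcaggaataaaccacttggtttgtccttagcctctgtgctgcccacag
Vwf summit at 12190 bp, intron 3, chr6:125565038-125565238, plus strand: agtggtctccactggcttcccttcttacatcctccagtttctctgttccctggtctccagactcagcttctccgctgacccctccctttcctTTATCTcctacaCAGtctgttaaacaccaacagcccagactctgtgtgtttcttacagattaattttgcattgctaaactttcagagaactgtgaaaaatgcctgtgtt
Vwf summit at 20458 bp, intron 6, chr6:125573306-125573506, plus strand: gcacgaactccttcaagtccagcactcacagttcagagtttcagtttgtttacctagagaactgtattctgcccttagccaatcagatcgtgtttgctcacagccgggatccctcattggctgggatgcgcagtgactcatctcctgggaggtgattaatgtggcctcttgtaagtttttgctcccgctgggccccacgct
Gp9 summit at −7235 bp, intergenic, chr6:87770737-87770937, plus strand: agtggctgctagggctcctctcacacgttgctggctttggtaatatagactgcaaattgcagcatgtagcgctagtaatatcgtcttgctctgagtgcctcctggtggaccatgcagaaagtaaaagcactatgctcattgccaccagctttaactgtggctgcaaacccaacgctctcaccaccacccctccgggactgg

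Among the 10 genes, 8 had an accessible region at a start, and Ppbp and Gp6 had none. Over all 20807 protein-coding genes of these chromosomes the share was 63.5%. Counting only starts of protein-coding transcripts left 7 of the 10, against 61.7% of all genes, because the regions of Vwf then lay at starts of noncoding transcripts alone. The share of open platelet genes was thus not far from that of genes in general, while their regions ranked low in signal. The median signal of the 37 regions was 7.0, against 8.35 over all regions, which placed their median at the 32.9 percentile of the list. Of the 37, 28 lay below the median of all regions and 11 in the lowest 10%, while 3 lay in the highest 20%. In a bulk population, a site open in few cells and a site weakly open in many cannot be told apart.

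The low ranks were most marked within 1 kb of the protein-coding starts. The 10 regions there had a median signal of 5.52, against 9.10 over the 15064 promoter regions of the list, and their median stood at the 16.2 percentile of that class. They were also narrow, with a median width of 484.5 bp, against 754 bp. Not all of them covered a start. The regions of Gp5 at 1063 bp, Pf4 at −814 bp and Gp9 at 770 bp had their nearer edges 752, 669 and 534 bp away. Their signals were 5.41, 3.33 and 5.06, so weak flanking regions are part of these medians. The 7 regions at starts of noncoding transcripts inside the genes had a median at the 46.9 percentile of all regions, and the 20 distal regions at the 36.1 percentile. The distal regions were 464 bp wide in the median, against 455 bp over all distal regions.

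**Figure D1:**
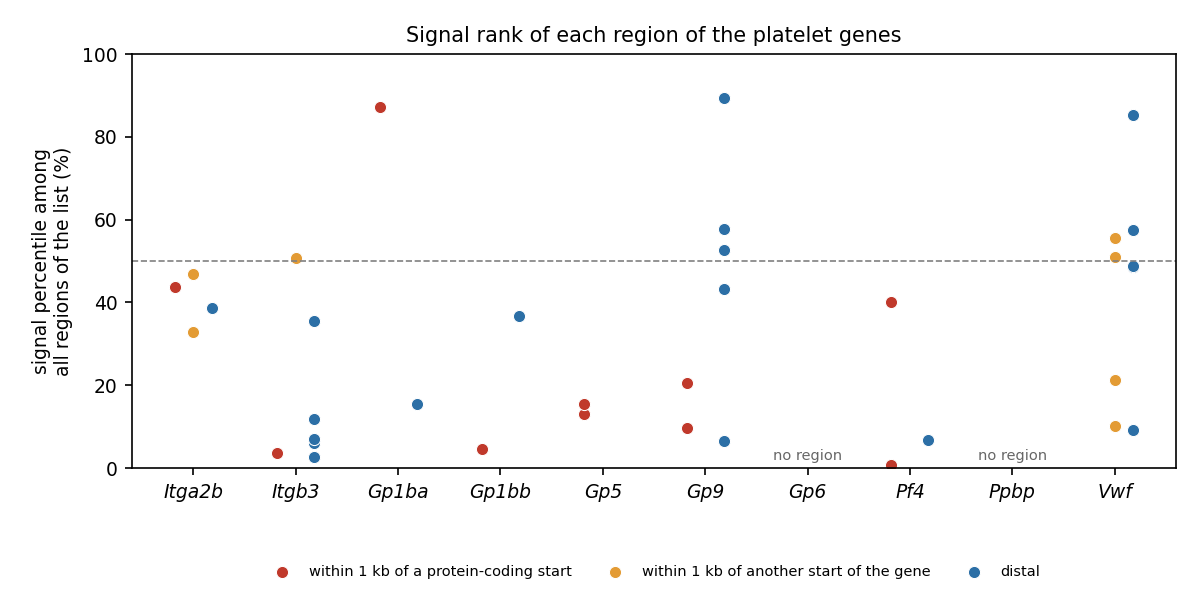
Signal rank of each region of the platelet genes, as the percentile among all 65789 regions of the list (vertical axis, %), by gene (horizontal axis). Points are regions at protein-coding starts (red), at other starts of the gene (orange) and distal (blue), and the dashed line is the median of all regions: 28 of 37 points lie below it, and the highest are at Gp9, Gp1ba and Vwf.

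The fibrinogen receptor genes were both open, with different layouts. Itga2b, on chromosome 11 from 102453297 to 102470122 on the minus strand, had a region of 752 bp with 2 summits over its start, from 102469748 to 102470499. Its signal of 7.83 ranked at the 43.8 percentile of all regions, and the replicates' own ranked lists gave 7.50 in replicate 1 and 8.06 in replicate 2. In those ranked lists this region stood at the 63.7 percentile in replicate 1 and the 63.9 percentile in replicate 2. The ranked lists are not filtered on IDR and hold 93530 and 81826 regions. Their percentiles are therefore not on the scale of the 43.8, nor equal ranks in the 2 libraries. The summit window shown above carries 1 composite match, which begins 1 bp from the summit on the plus strand of the genome.

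Further regions of Itga2b lay in its intron 4 at 2664 bp (signal 8.09) and in its intron 27 at 13756 bp (signal 7.0), each over the start of a noncoding transcript of the gene. The first of these outranked the start region, at the 46.9 percentile. The only distal region assigned to Itga2b was at −17283 bp, inside intron 7 of the neighbouring gene Gpatch8, with a signal of 7.42. It was in neither replicate's own IDR-thresholded list.

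Itgb3 spans 62477 bp on chromosome 11, from 104608000 to 104670476 on the plus strand, and had the most distal regions of the 10 genes. Its start region, of 359 bp from 104607980 to 104608338, had a signal of 4.15, at the 3.55 percentile of all regions, with 4.19 in replicate 1 and 3.95 in replicate 2. The start of Itgb3 was thus among the weakest regions of the list, and intron 1 held regions of like rank. In intron 1, 4 regions at 1500, 3806, 6356 and 10813 bp had signals of 3.97, 4.58, 4.72 and 3.94. The strongest region was at 29256 bp in intron 5, over the start of a noncoding transcript, with a signal of 8.41 at the 50.8 percentile. It gave 8.34 in replicate 1 and 8.44 in replicate 2.

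The remaining regions of Itgb3 were at 31100 bp in intron 6, with a signal of 5.28, and at −11397 bp between genes, with a signal of 7.22. The upstream region ranked at the 39.4 percentile of replicate 1's ranked list, with a signal of 5.43, and at the 64.6 percentile of replicate 2's, with a signal of 8.15. Itgb3 had 6 distal regions in all, a number reached or passed by 10.4% of protein-coding genes. Over the 10 platelet genes the mean was 2.0 distal regions per gene, against 2.01 over all protein-coding genes, with a median of 1 in each.

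**Figure D2:**
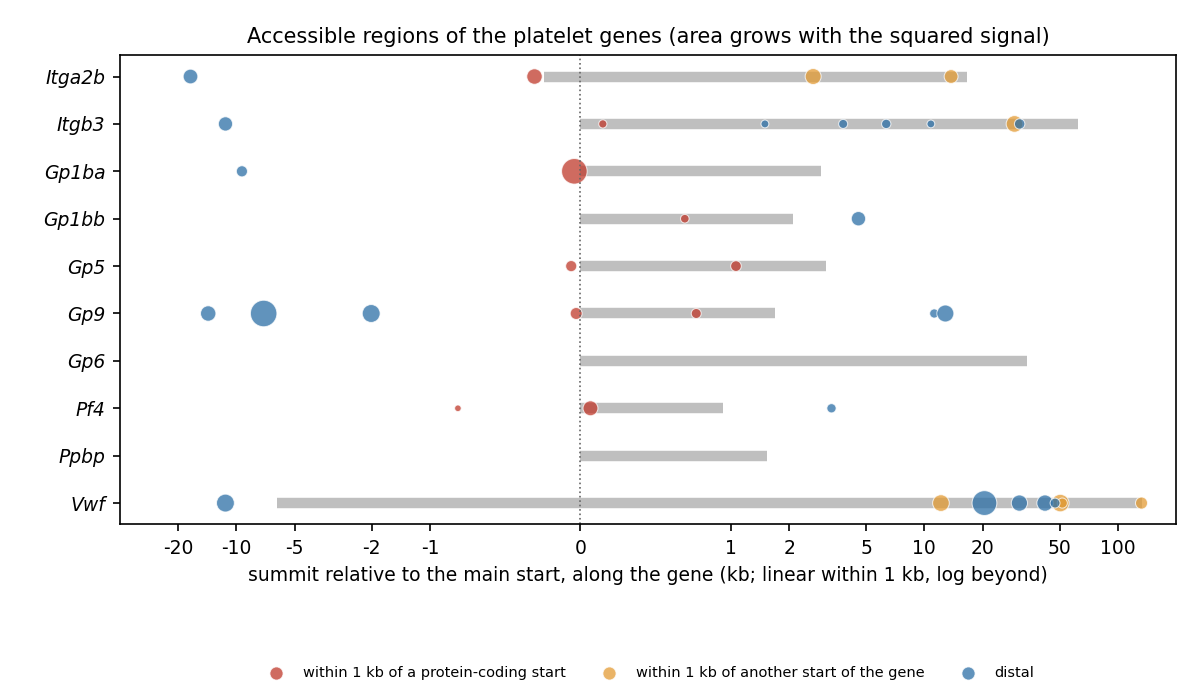
Positions of the 37 regions relative to the main start of each gene (horizontal axis, kb along the gene, linear within 1 kb and logarithmic beyond), with genes as grey bars. The area of a point grows with the squared signal, and colours mark regions at protein-coding starts (red), other starts (orange) and distal regions (blue): Itgb3 carries a row of small points in intron 1, Vwf its largest point at 20458 bp, and Ppbp and Gp6 no point.

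Among the genes of the von Willebrand factor receptor, Gp1ba stood apart from its partners. Gp1ba, which encodes the chain that binds von Willebrand factor, lies on chromosome 11 from 70639122 to 70642036 on the plus strand. Its start region, 952 bp from 70638459 to 70639410 with 2 summits, had a signal of 12.9, at the 87.2 percentile of all regions and the 80.4 percentile of promoter regions. The libraries gave 12.3 in replicate 1 and 11.9 in replicate 2, so this was the strongest promoter region of the platelet genes in each. Its main summit fell at −40 bp, and the GATA matches of the promoter shown above begin at −64 and −11 bp from that summit. A second region at −9372 bp was weak, with a signal of 5.64, and was in the ranked list of replicate 1 but not in that of replicate 2.

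Gp5, Gp9 and Gp1bb had weaker start regions. Gp5, on chromosome 16 from 30307685 to 30310779 on the minus strand, had regions at −61 bp (signal 5.63) and at 1063 bp in its exon 2 (signal 5.41). In replicate 1 these gave 4.89 and 5.63, and in replicate 2 5.91 and 4.53, so the libraries ranked them in opposite order. The exonic one came within 752 bp of the start at its nearer edge. Gp5 had no distal region.

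Gp1bb, on chromosome 16 from 18620317 to 18622403 on the minus strand, had a start region of 405 bp whose summit lay 694 bp inside the gene, 69 bp from the start of a shorter coding transcript. The same bases are exon 11 of the overlapping gene Sept5, so a gene cannot be assigned to that region from position alone. Its signal was 4.35, at the 4.67 percentile, with 3.57 in replicate 1 and 5.22 in replicate 2. Beyond the gene's end, at 4567 bp, a distal region of 662 bp was stronger, with a signal of 7.27.

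Gp9, on chromosome 6 from 87778072 to 87779768 on the plus strand, had low-ranked regions at the gene and distal regions of widely differing rank. The region over its start, from 87777809 to 87778247, had a signal of 6.05 at the 20.5 percentile, with 5.10 in replicate 1 and 6.05 in replicate 2. A second region at 770 bp, in intron 1, had a signal of 5.06. Upstream, between genes, the region at −7235 bp had a signal of 13.4, the highest of all 37 and at the 89.4 percentile. It gave 11.6 in replicate 1 and 10.8 in replicate 2, well above the start region in each library, but it was in the own IDR-thresholded list of replicate 1 alone.

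The region of Gp9 at −2012 bp, with a signal of 9.06, lay near the start of the long noncoding RNA gene Gm43904. Its edge was 1706 bp from the start of Gp9, outside the 1 kb limit, as was the region of Itgb3 at 1500 bp with its edge 1351 bp away. On the inner side of that limit stood the Gp5 exon region, at 752 bp, and a Vwf region at 980 bp from a noncoding start. The remaining distal regions of Gp9 were at −13999 bp (signal 7.79), and at 11253 and 12851 bp (signals 4.64 and 8.59), over exon 3 of a transcript of Rab43 and within 1 kb of a start of that gene. Those regions therefore adjoin Rab43 as well as Gp9.

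Gp6 had no region in the conservative list. The gene lies on chromosome 7 from 4363965 to 4397744 on the minus strand, and the region nearest to a coding start of it was 26893 bp away. In replicate 1's ranked list, which is longer because it is not filtered on IDR, a region from 4397665 to 4397966 covered the start. It had a signal of 3.79, at the 13.2 percentile of that list, and replicate 2's ranked list had none there.

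Of the alpha-granule chemokines, which sit side by side on chromosome 5, Pf4 was open and Ppbp was not. Pf4, from 90772435 to 90773383 on the plus strand, had a region of 930 bp with 2 summits from 90771840 to 90772769. Its signal was 7.55 at the 40 percentile, with 7.41 in replicate 1 and 7.66 in replicate 2. After the Gp1ba and Itga2b starts this was the third strongest region at a protein-coding start, and the only other one in the own IDR-thresholded list of each replicate. A GATA match begins −31 bp from its summit, and the composite, on the minus strand, 49 bp from it.

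Pf4 also had a region at −814 bp with a signal of 3.33, at the 0.755 percentile and the weakest of the 37, and a distal region at 3313 bp with a signal of 4.69. The region at −814 bp was not in replicate 2's ranked list. Its window holds an NF-E2 match on each strand, beginning at −69 and −66 bp from the summit. Ppbp, from 90768518 to 90770063 on the same strand, had no region, and the region nearest to its start was that Pf4 region, 2971 bp away. In replicate 2's ranked list alone, a region at −2504 bp from Ppbp had a signal of 4.06.

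Vwf, the longest of the genes at 139906 bp on chromosome 6 (125546774 to 125686679, plus strand), had 9 regions and none within 1 kb of a protein-coding start. The nearest was the intergenic region at −11405 bp, with a signal of 9.04, whose edge was 5018 bp from the closest coding start. The strongest, at 20458 bp in intron 6, spanned 1473 bp with 6 summits and had a signal of 12.5, at the 85.2 percentile. It gave 11.5 in replicate 1 and 12.4 in replicate 2, and was the widest of the 37 regions and the one with the most summits.

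Downstream in Vwf, regions of similar rank lay at 12190 bp in intron 3 (signal 8.44), at 31016 bp in intron 6 (signal 8.20), at 42052 bp in intron 10 (signal 8.22) and at 50471 bp over exon 14 (signal 8.85). These 4 ranked between the 48.5 and 55.5 percentiles. Weaker ones were at 47406 bp in intron 12 (4.99), at 51688 bp in intron 15 (5.11) and at 132686 bp in intron 50 (6.12). Those at 12190, 50471, 51688 and 132686 bp were within 1 kb of starts of noncoding transcripts of Vwf. For the last of them the nearest protein-coding start was that of the gene Ano2. Over the main start itself, replicate 2's ranked list alone had a region, from 125552694 to 125553014, with a signal of 3.51 at the 6.19 percentile of that list.

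Vwf is also a gene of endothelial cells. Of 13 endothelial marker genes, 8 had a promoter region, against 63.5% of all protein-coding genes. Cdh5 and Pecam1 were among the 8, and Kdr, Tek, Emcn, Cldn5 and Mmrn2 had none. A part of such cells in the regions of Vwf was not tested. Of the genes listed as markers of the labelled cells, Kit, Cd34, Fcgr3, Gata2 and Flt3 all had a promoter region, 5 of 5. Their strongest promoter regions stood at the 56.8, 44.7, 8.30, 7.55 and 75.5 percentiles of all regions, in that order. Low ranks were thus also seen at the starts of Fcgr3 and Gata2, while Kit, Cd34 and Flt3 ranked higher. Of granulocyte, B cell and T cell markers, 0 of 5, 0 of 3 and 0 of 3 had one, and of erythroid markers 4 of 5.

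The replicates were then compared through their own lists. In replicate 1's own IDR-thresholded list, 23 of the 37 platelet regions were found (62.2%, exact Clopper-Pearson 95% interval 44.8 to 77.5), against 67.9% of all regions. In replicate 2's they numbered 13 (35.1%, interval 20.2 to 52.5), against 54.9% of all regions. The interval for replicate 2 thus lay below the share of all regions and that for replicate 1 included it. Such intervals cover counting error only, and regions of 1 gene are not independent. By class, 12 of the 37 were in each of the lists, 11 in replicate 1's alone, 1 in replicate 2's alone (Gp9 at 11253 bp) and 13 in neither, against 50.6%, 17.2%, 4.27% and 27.8% of all regions.

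Within 1 kb of the protein-coding starts the gap to other promoters was wide. Of these 10 regions, 4 were in replicate 1's IDR-thresholded list, against 83% of all promoter regions, and 3 in replicate 2's, against 74%. The 3 in each were the starts of Gp1ba, Itga2b and Pf4, and replicate 1's list added the start of Gp9. The regions of Gp5 at 1063 bp, Pf4 at −814 bp and Gp9 at 770 bp, which cover no protein-coding start, were in neither list. The other 27 regions were found more nearly as distal regions were in general, 19 of 27 in replicate 1 against 63.4%, and 10 of 27 in replicate 2 against 49.3%.

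By gene, the starts of Itga2b, Pf4, Gp1ba and Vwf were open in each replicate's IDR-thresholded list, counting starts of any transcript. Itgb3 and Gp9 were open in replicate 1's alone, and Gp1bb and Gp5 in neither. This made 6 of 10 genes in replicate 1, against 59% of protein-coding genes, and 4 of 10 in replicate 2, against 54.5%. For Itgb3 the region found in replicate 1's list was that at 29256 bp, at a noncoding transcript's start. The region over the protein-coding start of Itgb3 was in neither list. The regions of Vwf at starts were likewise all at starts of noncoding transcripts. In the longer ranked lists nearly every region was found, 37 of 37 in replicate 1, against 98.2% of all regions, and 34 of 37 in replicate 2, against 95.2%. The 3 regions not met in replicate 2 were Pf4 at −814 bp, Gp1ba at −9372 bp and Gp9 at −13999 bp.

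Over the 34 regions in both ranked lists, the signals of the libraries had a Spearman correlation of 0.874, against 0.904 over the 61898 regions of the whole list found in both. These are correlations across regions, given as a description. The ranked lists of the replicates differ in length, so their ranks do not show a change.

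**Figure D3:**
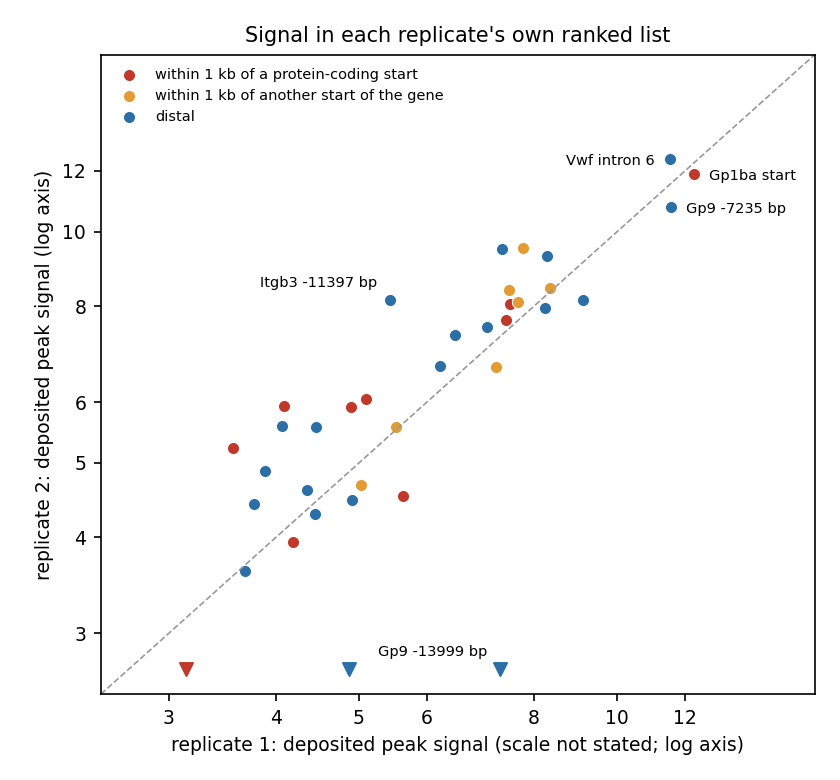
Deposited peak signal of the platelet regions in replicate 1's ranked list (horizontal axis, log scale) and in replicate 2's (vertical axis, log scale); the scale of the signal is not stated. Circles are the 34 regions found in both, coloured by class, triangles at the bottom are the 3 not found in replicate 2's list, and the dashed line marks equal values: the Vwf intron 6, Gp1ba start and Gp9 −7235 bp regions are the highest in each library.

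Motifs within 100 bp of the summits were counted for 13 patterns on both strands. They were GATA and the composite as spelled out above; ETS (CGGAAG or CAGGAAG); PU.1 (GAGGAAG); RUNX (TGTGGTT or TGCGGTT); E-box (CAGCTG or CAGATG). The others were NF-E2 (TGCTGANTCA), AP-1 (TGAGTCA or TGACTCA), SP (GGGCGG), KLF (CACACCC or CCNCNCCC), SRF (the CArG box), MEIS (TGACAG) and C/EBP (TTGCNNAA). Composite matches overlap GATA matches wherever the base before GATAA is A or T, and NF-E2 matches can hold an AP-1 match. A match is a stretch of letters and not a bound site.

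At the protein-coding starts, GATA was matched in 4 of 10 platelet windows (40%), against 7.71% of all promoter regions. These were the starts of Gp1ba, Gp5, Itga2b and Pf4. The composite was matched in 3 (30%; Gp9, Itga2b and Pf4), against 1.45%, and PU.1 in 4 (40%), against 13%. ETS was matched in 4 of 10, against 33.0%, and RUNX in 1 of 10, against 5.8%. The letters of GC-rich promoters were less common, with SP in 3 of 10, against 51.4%, and KLF in 3 of 10, against 57%. The median GC content of these windows was 54.7%, against 62.7% over all promoter regions, and its part in the motif counts was not tested.

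Away from the protein-coding starts, GATA was matched in 9 of 27 windows (33.3%), against 22.1% of all distal regions. RUNX was matched in 8 (29.6%), against 14.7%. Of these, 5 were in Itgb3, at 1500, 3806, 6356, 29256 and 31100 bp, so the count rests largely on 1 gene. The window at 3806 bp held GATA, RUNX, the E-box, the composite and the NF-E2 letters together. ETS letters were matched in 2 of 27 (7.41%), against 25.0%, although PU.1 letters, which also contain the GGAAG core, were matched in 5 (18.5%), against 21.2%. With so few windows, 1 match more or less moves each of these shares by several points.

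The strongest distal regions held few of the 13 patterns, and motifs outside these patterns were not searched. The Gp9 window at −7235 bp matched none of the 13, and the Vwf window in intron 6 matched AP-1 alone. In the RefSeq promoters, GATA was matched in 4 of 8 (Gp1ba, Gp5, Gp6 and Pf4), against 18.6% of the 31365 promoters of the table. PU.1 was also in 4 of 8 (Gp5, Gp9, Itga2b and Pf4), against 13.4%. ETS was in 2 of 8 (Gp1ba and Gp1bb), against 28.2%, and RUNX in 0 of 8, against 6.73%. The SRF letters were found in Ppbp alone, at −87 to −78, against 1.58% of all promoters.

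**Figure D4:**
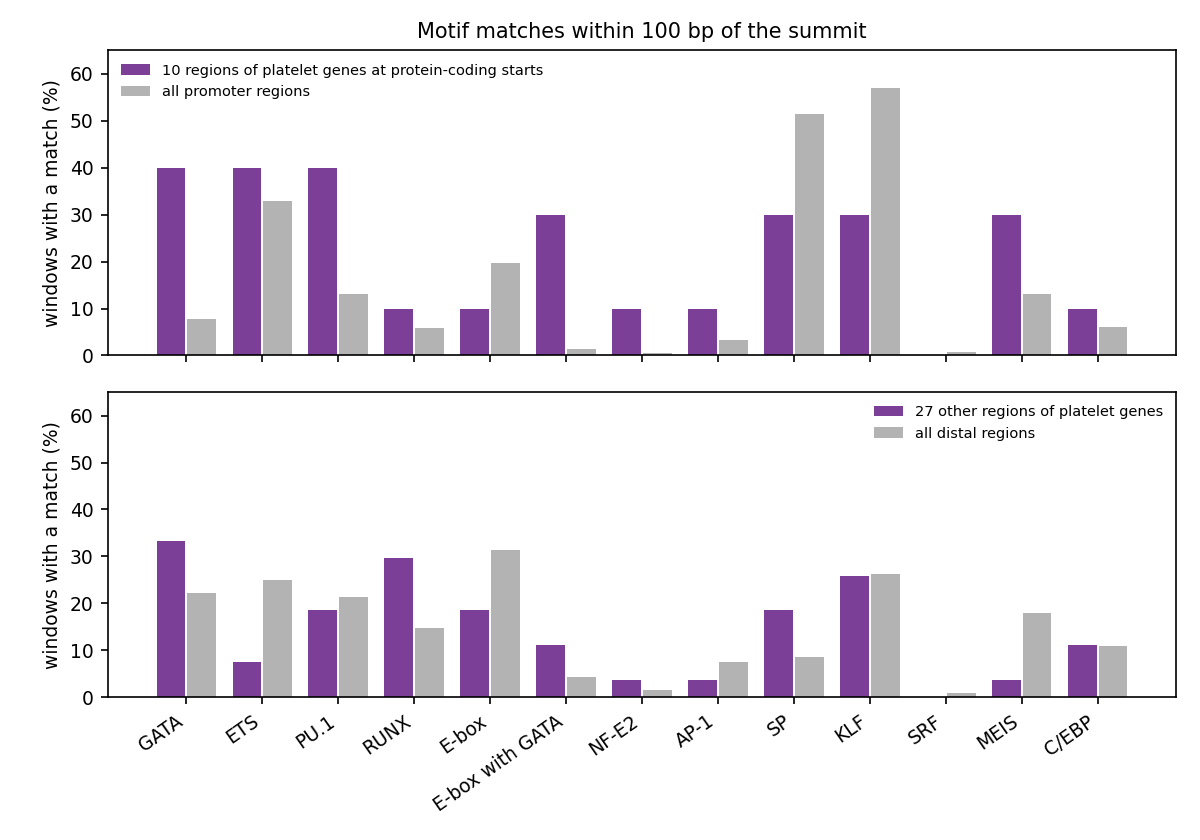
Share of summit windows with a match (vertical axis, %) for 13 motifs (horizontal axis). In each panel purple bars are regions of the platelet genes and grey bars all regions of the same class, with 10 windows at protein-coding starts above and 27 other windows below: GATA is matched in 40% of the platelet windows at starts, against 7.71% of all promoter regions.

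Other genes of the platelet were open at their starts at differing rates. Of the other receptors and signalling genes, 18 of 21 had a promoter region, against 63.5% of protein-coding genes, and those without were Clec1b, the podoplanin receptor, Cd36 and the adrenergic receptor Adra2a. P2rx1, an ATP-gated channel, and Jam3, an adhesion molecule, had signals of 11.3 and 13.7. The genes of the thrombin receptors PAR3 and PAR4 of mouse platelets, F2rl2 and F2rl3, had signals of 9.71 and 7.77. Fcer1g, the signalling partner of Gp6, had a signal of 6.83, although Gp6 itself had no region.

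Other granule cargo had a promoter region in 14 of 21 genes (66.7%), near the 63.5% of all protein-coding genes. The fibrinogen chains Fga, Fgb and Fgg were among those without one, with F13a1, Pdgfb, Sparc and Cxcl5. In replicate 1's own IDR-thresholded list, 9 of the 21 cargo genes had a promoter region, against 59% of protein-coding genes. In replicate 2's the number was 7 of 21, against 54.5%. Selp, encoding P-selectin, had a signal of 5.10, F5, coagulation factor V, 4.54, and Mmrn1, multimerin, 6.00, and none of these starts was in either replicate's own IDR-thresholded list. The median percentile of the strongest promoter region was 20.6 for open cargo genes and 50.9 for open receptor genes. All 15 counted genes of the list named for granule biogenesis and the platelet shell had a promoter region, against the same 63.5%. That list also takes in Fermt3, Tln1, Rasgrp2 and Rap1b. Nbeal2 and Vps33b, both needed for alpha granules, had signals of 11.9 and 14.9. The beta1 tubulin gene of platelets, Tubb1, was weak at 5.06. All 9 transcription factor genes of the lineage that were counted had one too, against 63.5%, from Fli1 at 4.45 to Ets1 at 13.02. Of the 11 listed, Gata1 and Mkl1 were not counted. The median percentile of the strongest promoter region was 46.6 for these factors and 43.7 for the biogenesis genes. These medians use only each open gene's strongest promoter region. They are not on the measure of the medians given above for regions of the 10 genes. They therefore do not place the 10 genes below these lists. On this per-gene measure, Itga2b stood at the 46.9, Itgb3 at the 50.8, Vwf at the 55.5 and Gp1ba at the 87.2 percentile. The values of Itga2b, Itgb3 and Vwf come from regions at starts of noncoding transcripts. At protein-coding starts, Itga2b stood at the 43.8 and Itgb3 at the 3.55 percentile, and Vwf had no region. Pf4 stood at the 39.987, Gp9 at the 20.5, Gp5 at the 15.4 and Gp1bb at the 4.67 percentile.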

How the data were processed

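ATAC-seq of 2 libraries of 1 group was used, as peak lists on mm10 deposited by the authors. The sources used here do not name the aligner or the peak caller, nor say whether reads were shifted for the transposase. Each deposited peak has a signal value of no stated scale and a −log10 p. For replicate 1 the labels list 2 instruments and for replicate 2 none. Depth is unknown, since no counts are given.

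Overlapping peaks were merged, keeping the strongest summit, on chromosomes 1 to 19. Starts came from GENCODE M21, and sequence from GRCm38.p6 and RefSeq. Regions of the lists shared at least 1 bp to count as found. Intervals are exact (Clopper-Pearson, 95%) and no hypothesis test was made. Listed genes on other chromosomes or without a match were not counted. All 10 members are described. Not every listed gene is reported here by name. Other genes come from the lists, host or adjoin a region, or are the next gene by position. The members and lists were chosen with earlier results of these data known. Alternatives were other lists, either replicate alone, the upper 50% of regions, other windows, other starts and other overlap rules. The assignment and motif code was tested on simulated data. Python 3.11.15, pandas 2.3.3, SciPy 1.17.1 and NumPy 2.4.6 were used.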

Additional observations from a re-analysis of the deposited data

How the results depend on the processing

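Of 65 alternative values, 48 stayed within their limits (1.5 times for a count, the spread between the replicates' medians for the percentile, the interval for a share) and 17 did not. With either replicate's own IDR-thresholded list alone (without replicate 1 or without replicate 2), the genes open at a start numbered 4 to 6, the promoter regions 6 to 11 and the distal regions 7 to 13, and the median percentile was 28.9 to 30.0. The upper 50% of regions by signal left 3 of 10 genes (against 46.1% of all protein-coding genes), 4 promoter and 5 distal regions, at a median percentile of 57.6. The list of replicated peaks gave 39 distal regions, a median percentile of 39.6 and 9 of 10 genes open (against 71.1% of all protein-coding genes), with Gp6 added. With starts of protein-coding transcripts only, there were 10 promoter regions. In the pseudoreplicated lists, 100% of the regions were found in replicate 1 and 91.9% in replicate 2. These settings take in fewer or more regions by construction.

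The alternatives for the other platelet genes were chosen after seeing the data. Granule cargo genes with a promoter region then numbered 7 of 21 without replicate 1, against 54.5% of all protein-coding genes. Without replicate 2 they numbered 9 of 21, against 59%. The counts of the receptor, biogenesis and lineage factor lists stayed within the limit, and the cell type marker lists had no alternative. Windows of 50 bp left no RUNX match (0.0%) at protein-coding starts. The series list that is not labelled conservative holds fewer regions (63566) than the conservative one, without a stated reason, and gave 8 open genes.

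No paired analysis was possible because there is 1 group of libraries and no comparison between groups. Without read counts, a region not found in a library cannot be told from one below that library's depth.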

Other observations

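Beside the 37 regions, the ranked lists, which are not filtered on IDR, held 12 further regions of these genes in replicate 1 and 8 in replicate 2. At 3 places they lay in the same spot in each library. In Itgb3 a region at −8193 bp in replicate 1 (signal 4.23) met one at −8214 bp in replicate 2 (signal 5.26), and one at 22490 bp in replicate 1 (signal 3.56) met one at 22489 bp in replicate 2 (signal 3.81). In Vwf a region at −28736 bp in replicate 1 (signal 5.89) met one at −28739 bp in replicate 2 (signal 4.37). None of these places is in the conservative list.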
